A study of Danio rerio with 48 samples.

Results

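This section describes 30 gene IDs, of the 32520 in the deposited tables. Their mean level was far lower in zebrafish embryos of the AB strain than in those of the TL strain at every stage sampled. Some of them were counted in every AB embryo, and some had no count in single TL embryos. The 30 IDs were chosen on the measured strain difference. For each gene and stage, t was the mean of the 6 TL embryos and a the mean of the 6 AB embryos, in CPM (the count scaled to the embryo's total, which leaves out the most abundant ID), and a gene was kept when t was at least 2 CPM and a was at most t/8 at all 4 stages. The rule was met by 32 genes, of which 2 were left out by name. The strain differences of the members are therefore a description of how the genes were picked, with no test. Tests are given on other contrasts, on embryos that the choice did not use, or on IDs that are not members.

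The samples were 48 single whole embryos (Danio rerio), 6 of each strain at each of 4 stages an hour apart, from 2.25 to 5.25 hours post fertilisation (hpf), from natural spawning and with no treatment in any group. Embryos 1 to 3 of each group were biological replicate 1 and embryos 4 to 6 were biological replicate 2. RNA was read by CEL-seq2, which barcodes the 3′ ends of polyadenylated RNA, so that CPM values count transcript ends and are not divided by transcript length. The labels give neither the parents or clutches behind a replicate nor genotypes beyond the strain names, and p-values measure the spread between these embryos.

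The window runs from the start of the blastula period to epiboly. An embryo of the first stage lives on RNA and protein that the mother laid down in the egg, and its own genome is switched on later, when part of the maternal RNA is also cleared. A transcript found at the first stage is thus mostly a product of the mother's ovary. AB and TL are laboratory strains kept apart for many generations, and zebrafish lines are known to differ in gene content, families of immune genes included.

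Total counts without the most abundant ID were 3282435 to 12797100 per embryo (median 6488588), so that 3 counts were worth 0.234 to 0.914 CPM. All 8 listed markers of egg and early embryo were detected in each of the 48 embryos, with summed levels of 4498 to 8071 CPM in AB and 4783 to 8681 CPM in TL. Of the other tissues, the 2 matched blood markers summed to at most 0.96 CPM in any embryo, and the 2 matched skeletal muscle markers to at most 3.88 CPM. The 3 matched markers of ovarian follicle cells summed to 0 to 1.52 CPM in AB and 0 to 6.25 CPM in TL. That difference came from gsdf, at a mean of 0.0468 CPM in AB and 2.27 CPM in TL, while amh was at 0.106 CPM in both strains and star at 0.0991 and 0.0364 CPM. The part of such cells in the strain differences was not tested.

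Summed over the 30 genes, the level was 12.9 to 44.1 CPM in the 24 AB embryos (median 24.9) and 358 to 738 CPM in the 24 TL embryos (median 532). No gene was without counts in AB, where the sums over 24 embryos ran from 11 to 1085 counts. The ratio of the TL mean to the AB mean over all stages was 12.4 to 132 (median 26.0). No floor was applied to these ratios. For 23 members the mean AB level was under the value of 3 counts in the shallowest embryo, so the larger ratios rest on few AB counts. Most of the genes were low even in TL. The TL mean was under 10 CPM for 18 genes, between 10 and 50 CPM for 9 and over 50 CPM for 3, and the median of 8.12 CPM compares with 24 CPM over the 13022 genes that passed the filter on low counts in TL. All 30 passed that filter.

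**Figure D1:**
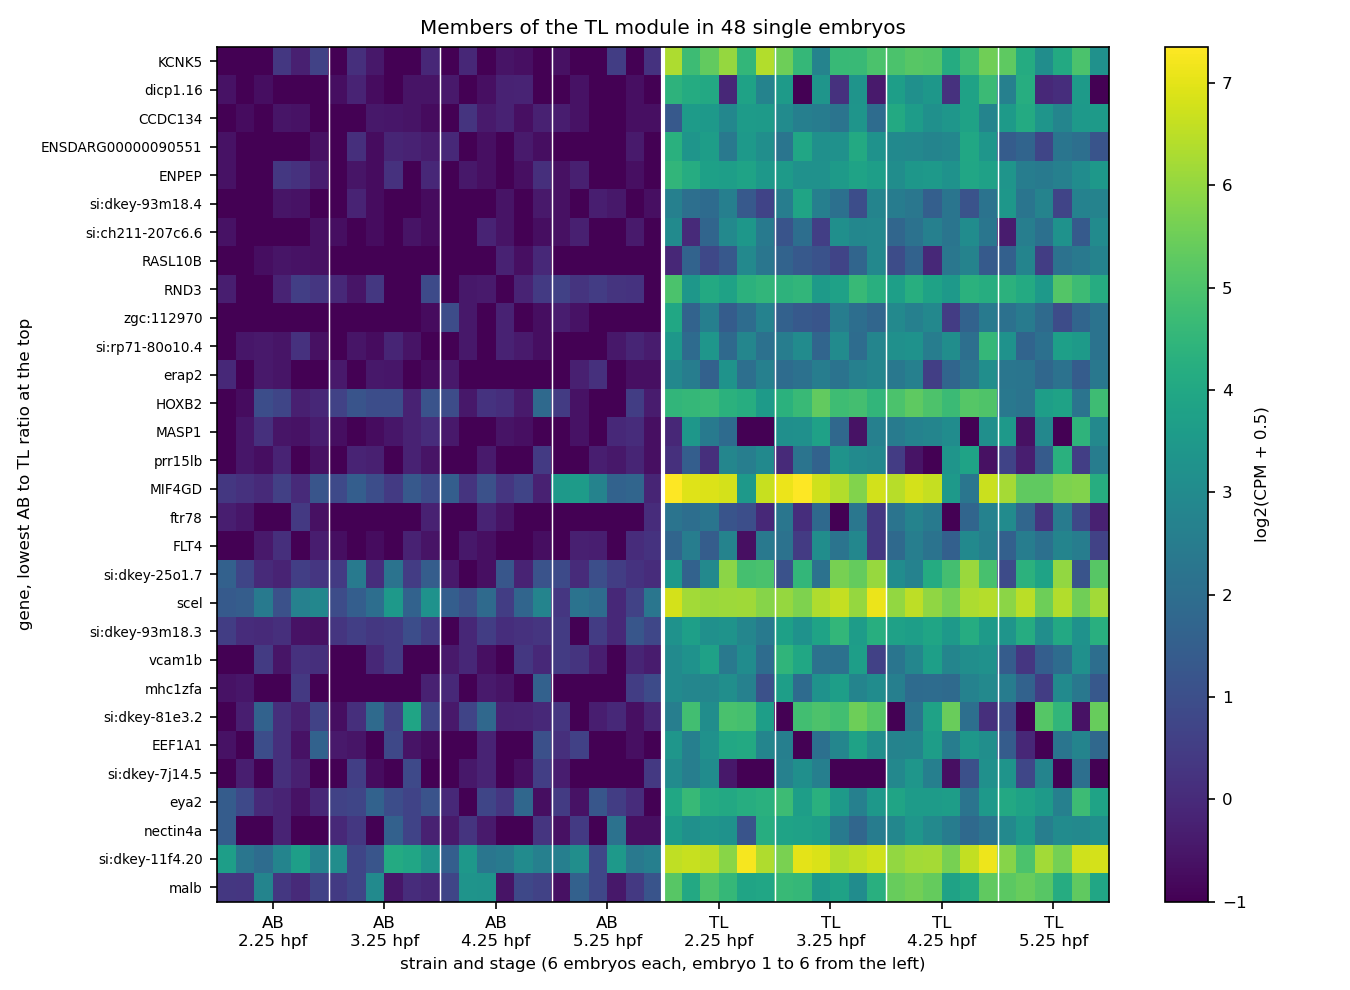
Level of each of the 30 genes (rows, ordered by summed AB to TL ratio) in each of the 48 embryos (columns, grouped by strain and stage), as log2(CPM + 0.5). The AB columns are dark in nearly every row, with the brightest AB cells for si:dkey-11f4.20, si:dkey-81e3.2, MIF4GD, scel and malb, and dark cells interrupt the TL columns of MASP1, si:dkey-7j14.5, si:dkey-81e3.2 and dicp1.16. For si:dkey-7j14.5 the dark cells take up TL embryos 4 to 6 at 2.25 and 3.25 hpf.

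At 2.25 hpf the lowest TL embryo was above the highest AB embryo for 25 of the 30 genes, against 3.88% of the genes tested at that stage. At 3.25 and 4.25 hpf it was 23 genes each (3.49% and 4.58% of all), and at 5.25 hpf 19 genes (2.59%). The rule used this contrast, so the counts only describe the members. For the other genes at least 1 TL embryo was no higher than the highest AB embryo. The shares are over genes that passed a filter on low counts in both strains' embryos of the stage, while the counts are over all 30 members. Of the members, 21, 19, 21 and 14 passed that filter in stage order, so the counts and shares are not over like sets.

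A first group carries names linked to immune functions. It was put together from the names of the members, with no share over all genes, so no theme is read from it. The gene dicp1.16 belongs to the DICP family of immunoglobulin-domain receptors of fish, and it came next to KCNK5 in the order of summed AB to TL ratios. Its TL mean was 8.85 ± 7.46 CPM and its AB mean 0.112 ± 0.129 CPM (SD, n = 24), a ratio of 79.1, and no AB embryo had more than 3 counts. The class I histocompatibility gene mhc1zfa, of a gene family that presents peptides to T cells, was at 5.77 ± 2.99 CPM in TL and 0.303 ± 0.592 CPM in AB. Of its 55 AB counts, 21 lay in AB embryo 6 at 4.25 hpf, and 14 AB embryos had none. The aminopeptidase erap2, whose mammalian counterpart trims peptides for class I molecules, was at 4.63 ± 1.90 CPM in TL and at most 3 counts in any AB embryo.

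MASP1, a serine protease of the lectin pathway of complement in mammals, was at 5.74 ± 5.10 CPM in TL and 0.195 ± 0.188 CPM in AB (SD, n = 24). The finTRIM gene ftr78, of a TRIM family expanded in fish, was the lowest of the 30 genes in TL, at 2.95 ± 2.20 CPM. The adhesion molecule gene vcam1b, whose mammalian counterpart binds leukocytes on vessel walls, was at 7.12 ± 4.98 CPM in TL and 0.342 ± 0.319 CPM in AB. Its AB to TL ratio at 5.25 hpf was close to the limit of the rule.

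A second group carries names of channels, surface proteins and secreted proteins. KCNK5, a two-pore-domain potassium channel, was the most nearly exclusive gene. The TL embryos ranged from 6.19 to 83.3 CPM (median 28.9), the highest AB embryo had 7 counts or 1.05 CPM, and 12 of the 24 AB embryos had none. The ratio of means was 132. ENPEP is a surface aminopeptidase known in mammals for cutting angiotensin II. Its biological coefficient of variation (BCV, edgeR's spread between embryos of a stage) was the smallest of the genes described here, 0.272, beside 0.275 for scel. The TL embryos of ENPEP lay between 4.80 and 22.1 CPM, and no AB embryo exceeded 0.788 CPM.

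CCDC134, a secreted coiled-coil protein, was at 9.25 ± 3.75 CPM in TL and 0.155 ± 0.164 CPM in AB (SD, n = 24), with at most 3 counts in an AB embryo. The receptor tyrosine kinase gene FLT4, which receives VEGF-C signals in lymphatic vessels, was low in TL, at 4.10 ± 2.20 CPM, with a ratio of 23.1. The adhesion gene nectin4a was at 8.08 ± 3.88 CPM in TL, and 17 of its 83 AB counts were in AB embryo 4 at 5.25 hpf.

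Higher levels were reached by scel and malb. The gene scel is named after sciellin, a precursor of the cornified envelope in mammalian skin. Its TL embryos ranged from 45.1 to 138 CPM (median 70.6) and its AB embryos reached at most 10.9 CPM, so that the strains stayed apart at every stage. The membrane proteolipid gene malb was at 25.9 ± 12.3 CPM in TL and 2.09 ± 2.87 CPM in AB (SD, n = 24). Its AB level was uneven. AB embryo 3 had 6.30 CPM at 2.25 hpf, 7.46 CPM at 3.25 hpf and 9.37 CPM at 4.25 hpf, and AB embryo 2 had 9.45 CPM at 4.25 hpf, while the other AB embryos of those stages had at most 1.27 CPM. Embryos with one number at different stages are different animals. The labels do not say whether the number stands for a shared parent or clutch, and no fit used it.

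A further group carries names of signalling proteins and regulators. RND3 was at 18.4 ± 6.26 CPM in TL and 0.456 ± 0.403 CPM in AB (SD, n = 24). The lowest of the 24 TL embryos, at 10.3 CPM, was above the highest AB embryo, at 1.34 CPM. RASL10B, a Ras-like GTPase, was at 3.21 ± 2.13 CPM in TL and had 11 counts in all AB embryos together, with none in 17 of them. HOXB2, a homeobox transcription factor known for its role in the hindbrain, was at 22.5 ± 10.3 CPM in TL and 0.826 ± 0.761 CPM in AB. The transcriptional coactivator eya2, an Eyes absent homologue, was at 14.4 ± 5.81 CPM in TL and 0.994 ± 0.803 CPM in AB.

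MIF4GD, which in human cells binds the protein that escorts histone mRNA, was among the most abundant members in TL, at 82.0 ± 46.4 CPM against 2.30 ± 2.94 CPM in AB (SD, n = 24). Its TL range was wide, from 4.31 to 163 CPM. At 4.25 hpf TL embryos 4 and 5 had 10.6 and 4.31 CPM and the other TL embryos 86.4 to 112 CPM, and at 2.25 hpf TL embryo 5 had 10.7 CPM beside 100 to 163 CPM. In AB the highest levels were at 5.25 hpf, where embryos 1 to 3 had 10.6, 11.4 and 6.09 CPM, embryos 4 to 6 had 2.56, 2.81 and 0.408 CPM, and no AB embryo of an earlier stage exceeded 2.35 CPM. The gene listed as EEF1A1, the name of a translation elongation factor, was at 6.87 ± 4.46 CPM in TL and 0.442 ± 0.665 CPM in AB. The gene prr15lb, named for a proline-rich protein, was at 4.47 ± 4.90 CPM in TL and 0.180 ± 0.207 CPM in AB.

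The other 10 genes have clone names or no symbol. Clone names made up 30.0% of the members (9 of 30) and 8.61% of the 10416 genes with t of at least 2 CPM at every stage. The most abundant of all 30 was si:dkey-11f4.20, with 30.9 to 152 CPM in TL embryos (median 86.9) and up to 16.6 CPM in AB. Its ratio of 12.4 was, with that of malb, the smallest. The genes si:dkey-93m18.3 and si:dkey-93m18.4, which share a clone name, are immediate neighbours in the RefSeq annotation of assembly GRCz12tu. In TL they were at 12.5 ± 4.35 and 4.75 ± 2.91 CPM, and in AB at 0.717 ± 0.435 and 0.0914 ± 0.117 CPM (SD, n = 24). They were the only neighbouring pair among the 14 members that could be placed by symbol, and with 46.7% placed a share of neighbours over all members is void.

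The genes si:ch211-207c6.6, zgc:112970 and si:rp71-80o10.4 were at 4.93 ± 2.8, 4.24 ± 2.94 and 7.14 ± 4.46 CPM in TL (SD, n = 24), with ratios of 52.2, 37.9 and 40.3. Of the 14 AB counts of zgc:112970, 6 were in AB embryo 1 at 4.25 hpf. The ID ENSDARG00000090551, which has no symbol here, was at 8.16 ± 4.88 CPM in TL and 0.137 ± 0.176 CPM in AB. The remaining genes, si:dkey-25o1.7, si:dkey-81e3.2 and si:dkey-7j14.5, had TL means of 25.8 ± 22.2, 18.6 ± 15.9 and 3.94 ± 3.70 CPM. Their standard deviations were nearly as large as their means.

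TL embryos were far from uniform for part of the genes. For 15 of the 30 genes every TL embryo was above the highest AB embryo of its stage, and for the other 15 at least 1 TL embryo was inside the AB range. Of the 720 combinations of gene and TL embryo, 45 (6.25%) lay inside it. They were spread over the embryos rather than piled up in a few, with 0 to 5 of the 30 genes per TL embryo (median 2). In 7 genes at least 1 TL embryo had no count.

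The gene si:dkey-7j14.5 had the most TL embryos inside the AB range, 9 of 24. At 2.25 hpf TL embryos 1 to 3 had 7.72, 5.50 and 7.80 CPM and embryos 4 to 6 had 0.221, 0 and 0 CPM, and at 3.25 hpf embryos 1 to 3 had 5.91, 8.43 and 5.54 CPM and embryos 4 to 6 none. At 4.25 hpf embryo 6 of replicate 2 had 8.62 CPM beside 0.129 CPM in embryo 4 and 1.54 CPM in embryo 5. All 9 TL embryos inside the AB range were of replicate 2, and the 12 of replicate 1 were above it.

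MASP1 was inside the AB range in 7 TL embryos. It had no count in TL embryos 5 and 6 at 2.25 hpf, embryo 5 at 4.25 hpf and embryo 4 at 5.25 hpf, and 20.9 CPM in embryo 5 at 5.25 hpf. Embryos of both replicates were among the 7, with 2 from replicate 1 and 5 from replicate 2. For si:dkey-81e3.2 it was 5 TL embryos, with no count in TL embryo 1 at 3.25 hpf, embryo 1 at 4.25 hpf and embryo 2 at 5.25 hpf, and a highest level of 45.1 CPM in embryo 5 at 3.25 hpf.

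In AB the same gene was uneven too. AB embryo 5 at 3.25 hpf held 78 of its 215 AB counts (36.3%), or 14.3 CPM, while TL embryo 1 of that stage had none. The share of AB counts in a single embryo was larger for zgc:112970 (42.9% of 14 counts), mhc1zfa (38.2% of 55) and RASL10B (36.4% of 11). For prr15lb and ftr78, 4 TL embryos each were inside the AB range. For dicp1.16 the number was 3, but 8 of the 24 TL embryos had under 1 CPM of it and the other 16 had 5.72 to 25.3 CPM, so that its TL values also fell into a low and a high set.

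**Figure D2:**
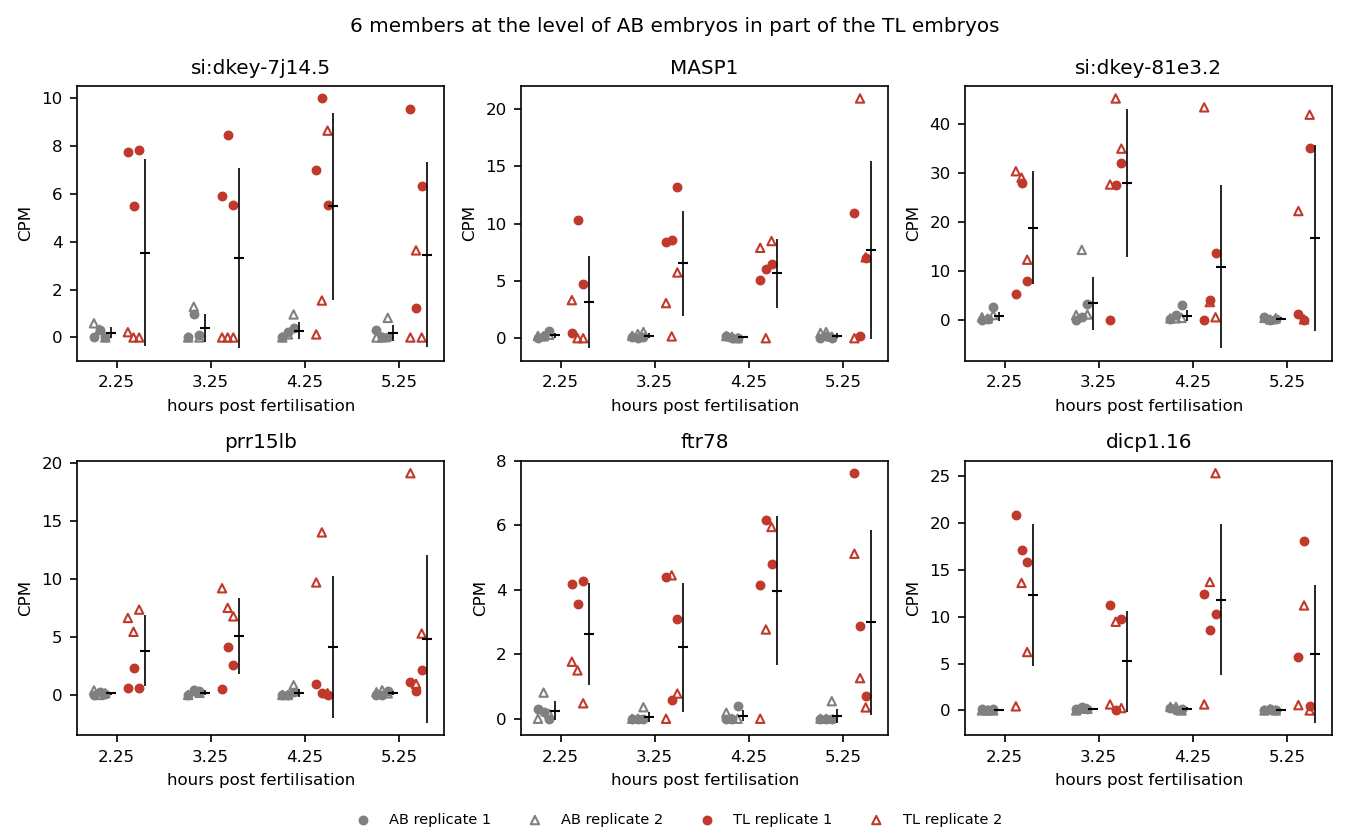
CPM of 6 genes in every embryo by stage, with AB in grey, TL in red, circles for biological replicate 1, open triangles for replicate 2, and the mean ± SD of each group of 6 as a bar to its right. In each panel some TL embryos lie among the AB embryos near 0, and for si:dkey-7j14.5 at 2.25 and 3.25 hpf these are the 3 embryos of replicate 2.

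The spread of the members among TL embryos was measured as the BCV in the fit of all TL embryos by stage. The median was 0.525 over the 30 genes and 0.285 over all 13022 genes tested, and 28 of the 30 were above the latter. The lower counts of the members go with a larger spread in general, and the part of this was not tested. The largest values belonged to si:dkey-7j14.5 (1.53), si:dkey-81e3.2 (1.31), MASP1 (1.23), dicp1.16 (1.14) and prr15lb (1.13).

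To ask whether the transcripts were kept or cleared while the embryonic genome was switched on, successive stages were compared within TL. The rule did not use the difference between stages, but it required a TL mean of 2 CPM at each of them. That leaves out genes that are cleared or switched on in this window and limits how far a member could fall, while the shares over all genes carry no such condition, so nothing about the members is read from the comparison of the shares. From 2.25 to 3.25 hpf and from 3.25 to 4.25 hpf none of the 30 was called by edgeR's quasi-likelihood test (Benjamini-Hochberg adjusted p under 0.05 and a log2 fold change of at least 1), with 2 members at an unadjusted p under 0.05 in each step, beside 8.11% and 20.3% of all genes. All genes tested gave 0.407% rising and 0.0154% falling in the first step, and 3.49% and 0.561% in the second. DESeq2 called 0 members in the first step and 1 in the second, malb. In a fit with the biological replicate as a block, malb also rose from 3.25 to 4.25 hpf (log2 fold change 1.02, edgeR adjusted p 0.0221), where the fit without the block gave 1.05 and an adjusted p of 0.0593.

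From 4.25 to 5.25 hpf 2 members fell and 0 rose, against 6.21% falling and 6.27% rising among all genes. DESeq2 gave the same counts of members, and 4 members had an unadjusted p under 0.05 in edgeR, beside 42.3% of all genes. HOXB2 had been between 25.1 and 38.6 CPM in the 6 TL embryos at 4.25 hpf and was at 4.63, 4.11, 12.3, 13.7, 4.11 and 26.4 CPM at 5.25 hpf. The fall was 2.58-fold (log2 fold change -1.37, SE 0.34, edgeR adjusted p 0.00283), and TL embryo 6 stayed within the range of the earlier stage. Without biological replicate 1 the change was -0.91 and was not called (edgeR adjusted p 0.220). ENSDARG00000090551 was at 6.24 to 15.4 CPM at 4.25 hpf and at 1.17 to 4.27 CPM at 5.25 hpf, with no overlap. It fell 3.01-fold (log2 fold change -1.59, SE 0.37, edgeR adjusted p 0.00162).

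Over the whole span from 2.25 to 5.25 hpf 3 members fell, KCNK5, ENSDARG00000090551 and EEF1A1, and 0 rose, beside 11.7% and 9.78% of all genes. DESeq2 also called 3 falling and 0 rising, and 5 members had an unadjusted p under 0.05 in edgeR, beside 49.9% of all genes. KCNK5 went from 22.6 to 83.3 CPM to 7.96 to 38.6 CPM, with overlapping groups, a 2.30-fold fall (log2 fold change -1.20, SE 0.40, edgeR adjusted p 0.0175). Without replicate 2 the change was -0.98, with an adjusted p of 0.206. For ENSDARG00000090551 the log2 fold change was -1.85 (SE 0.37, edgeR adjusted p 0.000167), and without replicate 1 it was -1.15 (adjusted p 0.0869). EEF1A1 fell by 1.78 on the log2 scale (SE 0.66, edgeR adjusted p 0.0310), from 5.62 to 16.2 CPM to 0 to 6.32 CPM with overlapping groups, and was not called with all 48 embryos in 1 fit (-1.82, adjusted p 0.0596). Its size rested on the replicate, at -1.33 without replicate 1 and -3.27 without replicate 2 (edgeR adjusted p 0.0430 and 0.0225). With the replicate block EEF1A1 was also called from 4.25 to 5.25 hpf, where its log2 fold change was -1.75 (adjusted p 0.0270) in place of -1.43 (0.102).

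Members went both ways over time, with 16 above and 14 below 0 over the span. Their median log2 fold change was -0.05, -0.11 and -0.04 in the 3 successive steps and 0.03 over the span, beside -0.02, 0.02, 0.02 and 0.01 over all genes tested. The neighbours si:dkey-93m18.3 and si:dkey-93m18.4 had log2 changes of 0.87 and 0.91 over the span, of which the first had an edgeR adjusted p of 0.00859 but did not reach a log2 fold change of 1. ENPEP changed by -0.80 over the span (adjusted p 0.00786), again short of that size. Stage coincides with the library index, so a difference between libraries and a change with time cannot be told apart, and in whole embryos fewer cells with a transcript cannot be told apart from less of it per cell.

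**Figure D3:**
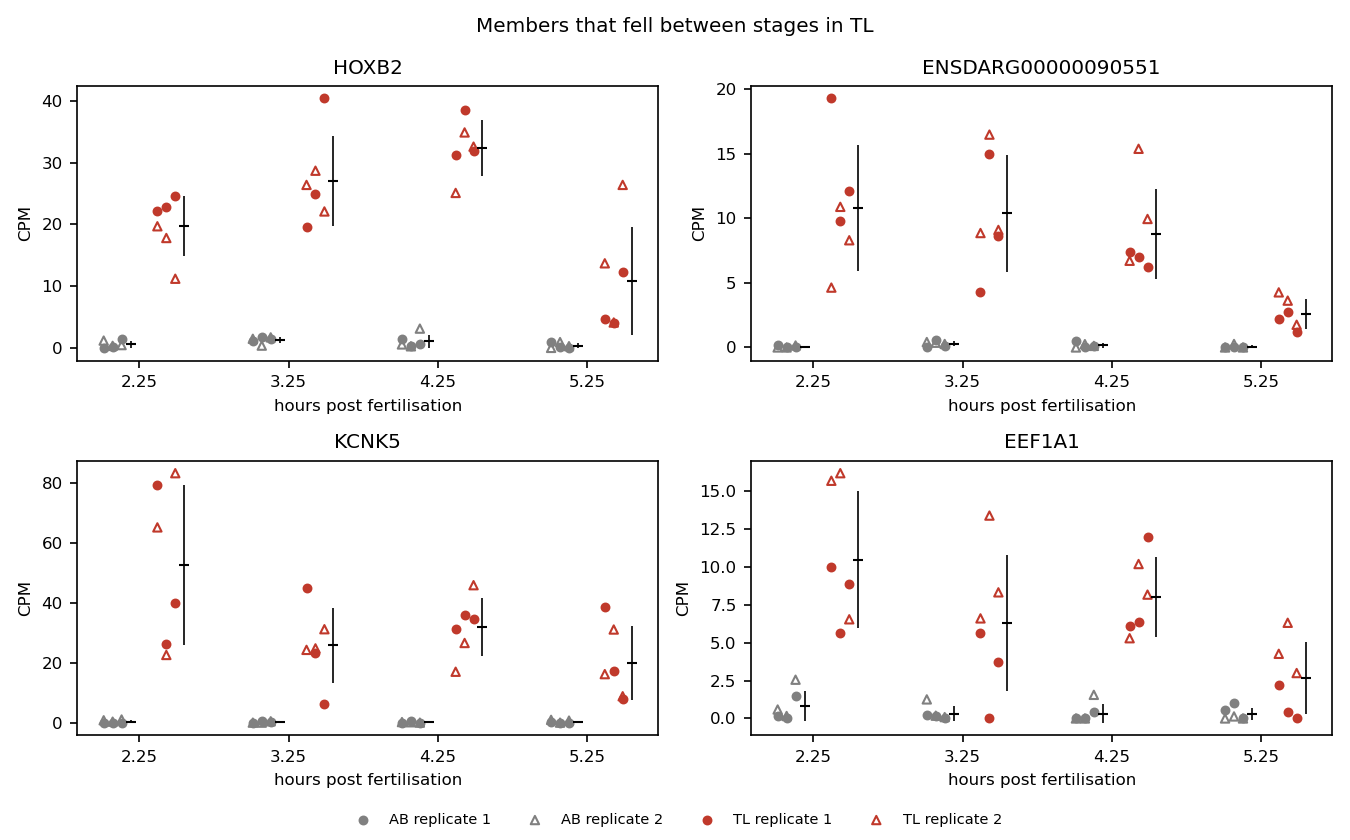
CPM of the 4 genes called as falling within TL, in every embryo by stage, with AB in grey, TL in red, circles for biological replicate 1, open triangles for replicate 2, and the mean ± SD of each group of 6 as a bar. HOXB2 and ENSDARG00000090551 drop at the last stage and KCNK5 and EEF1A1 fall over the whole span, while AB stays near 0 in the HOXB2, ENSDARG00000090551 and KCNK5 panels.

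The biological replicates of TL were compared over all stages, with stage in the model. In this comparison 5 of the 30 genes differed (edgeR's quasi-likelihood test, adjusted p under 0.05). Higher in replicate 2 were 3 members, against 6.46% of all genes, and lower in replicate 2 were 2 members, against 7%. These small counts are not far from the shares over all genes, so nothing about the members as a set is read from them. The test takes single embryos as its units. In sums over the 3 embryos of a replicate and stage, 246 genes were called in place of 1753, with 2 members higher and 2 lower. Replicate 1 and replicate 2 of TL had median counts of 6784389 and 6293124 without the most abundant ID. Each biological replicate had its own sequencing runs, so runs and animals cannot be told apart.

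The largest of these differences was in si:dkey-7j14.5. The 12 embryos of replicate 1 had 1.22 to 9.96 CPM (median 6.66), all with counts, and those of replicate 2 had 0 to 8.62 CPM with a median of 0. Its log2 fold change, replicate 2 minus replicate 1, was -3.16 (SE 0.72, edgeR adjusted p 0.00445). Levels in replicate 2 were mostly at or near 0, so the gene passed the count filter mainly through replicate 1. Its direction was therefore largely fixed once it was tested, and nothing is read from this call. The mean was lower in replicate 2 at each of the 4 stages, and the groups overlapped at 4.25 and 5.25 hpf. In sums over the 3 embryos of a replicate the adjusted p was 0.118.

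In the other direction, prr15lb was at 0 to 4.14 CPM in replicate 1 (median 0.763) and 0.149 to 19.1 CPM in replicate 2 (median 7.06), a log2 fold change of 2.66 (SE 0.53, edgeR adjusted p 0.00155). This gene passed the count filter mainly through replicate 2. Its direction too was largely fixed once it was tested, so nothing is read from the call. The gene si:dkey-25o1.7 was at 1.36 to 22.7 CPM in replicate 1 (median 7.50) and 1.74 to 68.3 CPM in replicate 2 (median 38.7), with a log2 fold change of 2.13 (SE 0.44, adjusted p 0.00190). In both genes the replicate 2 mean was higher at all 4 stages, while single replicate 2 embryos were as low as those of replicate 1. RASL10B had a log2 fold change of 1.12 (SE 0.36, adjusted p 0.0382, and 0.120 in sums over embryos), and malb one of -0.71 (SE 0.20, adjusted p 0.0205). Within single stages, with 3 embryos against 3, si:dkey-7j14.5 passed at 2.25 and 3.25 hpf (edgeR adjusted p 0.00952 and 0.00958) and si:dkey-25o1.7 at 4.25 hpf (0.0372). In replicate 2, si:dkey-7j14.5 had 1, 0 and 0 counts at 2.25 hpf and none at 3.25 hpf. It therefore passed the count filter at these stages through replicate 1 only. Its direction was fixed once it was tested, so nothing is read from these 2 calls. Shares over all genes are not given for single stages. RASL10B, malb and prr15lb passed at no single stage at which they were tested, and prr15lb was not tested at 4.25 hpf.

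**Figure D4:**
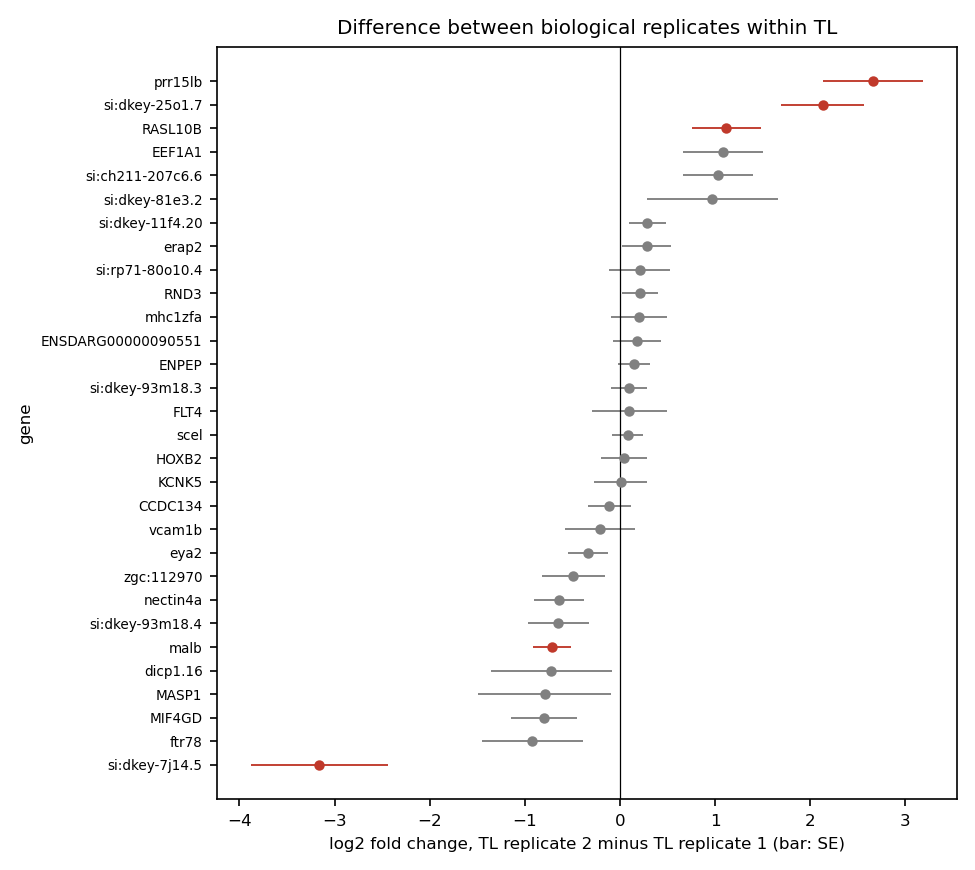
Log2 fold change of TL replicate 2 against TL replicate 1 for each of the 30 genes, with stage in the model, bars of 1 SE and called genes in red. The 5 called genes include the 3 most positive and the most negative values, and of the other genes all but EEF1A1 and si:ch211-207c6.6 lie within 1 of 0.

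Because the rule used all embryos, it was also applied to each biological replicate alone and the result was looked at in the other. In replicate 1 it chose 29 genes and in replicate 2 it chose 32, of which 22 each were among the 30. Chosen in both were 15 genes, 51.7% of the first list and 46.9% of the second. Of the 29 genes chosen in replicate 1, 13 were called higher in TL at every stage in replicate 2 by edgeR's quasi-likelihood test, and the number called was 16 per stage, where the share over all genes was 5.38%, 2.96%, 3.84% and 1.57% in stage order. Of the 32 chosen in replicate 2, 23, 19, 23 and 16 were called higher in TL in replicate 1 at the 4 stages in order, with 2.90%, 3.08%, 10.9% and 1.75% over all genes, and 12 were called at every stage. Genes that missed the count filter in the other replicate are counted as not called. A gene near 0 in AB can pass that filter only through TL, so that its direction is largely fixed once it is tested. The shares over all genes carry no such condition. The counts and shares are therefore not like for like, and no support for the members is read from these calls.

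Members with uneven TL embryos were among those not called. Called at no stage in the other replicate were 8 genes chosen in replicate 1, among them the members dicp1.16, ftr78, MASP1 and si:dkey-7j14.5, and 3 chosen in replicate 2, among them prr15lb. All 5 of these members missed the filter on low counts there. In the order named, the first 4 had mean levels in those embryos of 6.84, 2.04, 4.71 and 1.18 CPM in TL against 0.104, 0.171, 0.269 and 0.342 CPM in AB, and 1.28 against 0.136 CPM for prr15lb. Of the 8 genes, 6 were tested at no stage. The others, which are not members, were tested and not called. They were zgc:171490, tested at 4 stages (8.12 CPM in TL, 4.21 CPM in AB), and map3k22, tested at 2 (1.94 and 1.07 CPM).

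For 5 members another ID carries the same symbol. A shared symbol does not show that the IDs are close copies, and sharing of reads between them was not tested. The other IDs are not members, and their strain difference was therefore tested, a choice made after their values were seen. Among all genes, 8.2%, 7.18%, 10% and 5.12% were called higher in TL at the 4 stages in order, and 9.83%, 8.53%, 10.3% and 5.62% higher in AB. MIF4GD moved the opposite way in its other ID, ENSDARG00000102578. At 3.25 hpf that ID was at 36.5 to 48.7 CPM in AB and 15.7 to 30.2 CPM in TL, with no overlap, and it was lower in TL (log2 fold change -0.95, SE 0.18, edgeR adjusted p 0.00156). At 2.25 hpf it was also lower in TL (-0.97, SE 0.30, adjusted p 0.0356), and at 4.25 and 5.25 hpf it was not called (-0.23 and -0.29, adjusted p 0.498 and 0.403). Without replicate 2 neither of the first stages passed (adjusted p 0.247 and 0.120).

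The other RND3 ID, ENSDARG00000076799, was lower in TL at 2.25 hpf (10.9 ± 5.44 CPM in AB, 4.61 ± 1.87 CPM in TL; SD, n = 6; log2 fold change -1.21, SE 0.38, edgeR adjusted p 0.0351) and at 4.25 hpf (-1.33, SE 0.39, adjusted p 0.0228). At 3.25 hpf the change of -0.79 had an adjusted p of 0.0516, and 0.0346 with the replicate block. At 5.25 hpf it was not called (0.40, adjusted p 0.430). Without replicate 1 neither 2.25 nor 4.25 hpf passed (0.0664 and 0.139), nor did 2.25 hpf without replicate 2 (0.398). The other KCNK5 ID, ENSDARG00000012390, was present in both strains, at 27.2 ± 4.86 CPM in AB and 32.8 ± 7.11 CPM in TL at 2.25 hpf (SD, n = 6), and was not called at any stage (log2 fold change 0.25 to 0.41, edgeR adjusted p 0.183 to 0.667). The other CCDC134 ID had no count in any embryo, and the other EEF1A1 ID had 34 counts in all 48 embryos together.

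**Figure D5:**
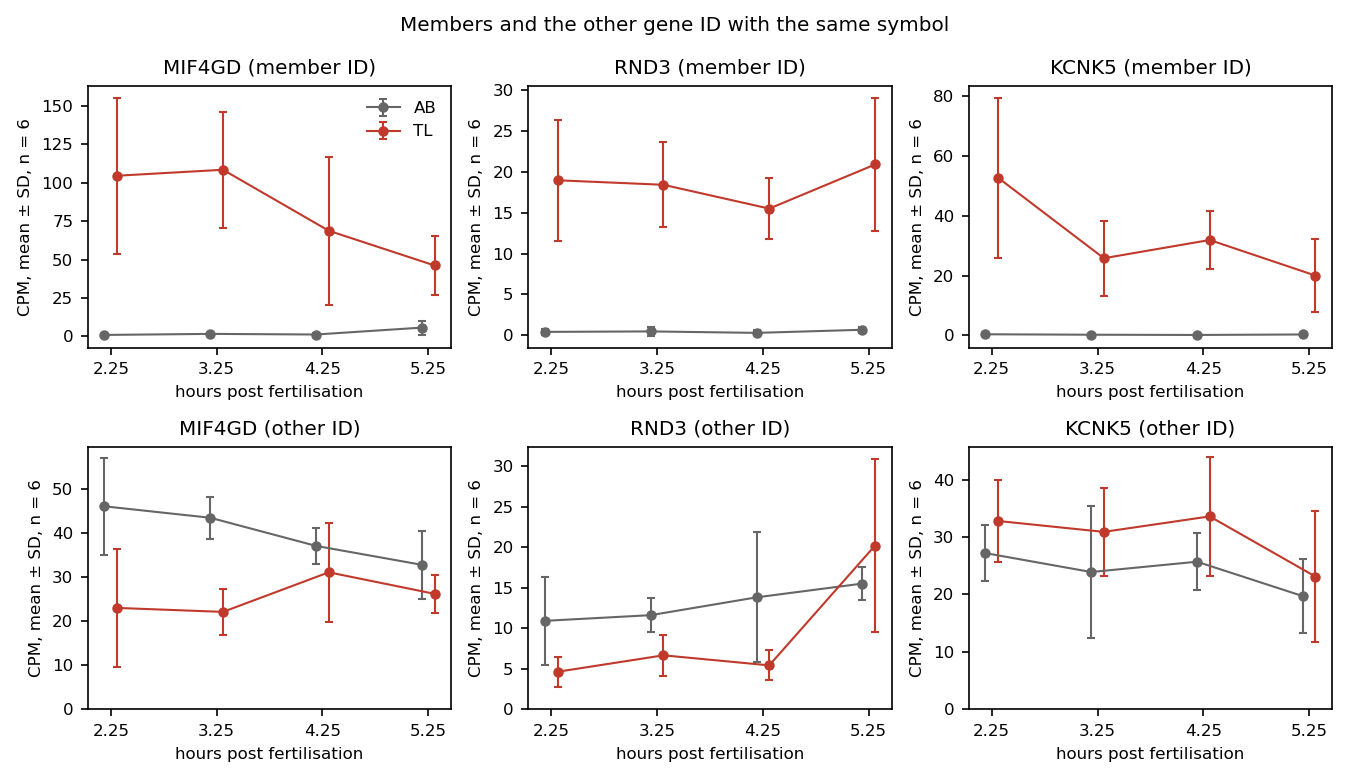
Mean ± SD (n = 6 embryos) in CPM of the member ID (upper row) and of the other ID with the same symbol (lower row) by stage, with AB in grey and TL in red. The member IDs are far lower in AB than in TL throughout. The means of the other MIF4GD and RND3 IDs are higher in AB than in TL at the first 3 stages, of which 2 each passed the test. The strains overlap in the other KCNK5 ID.

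Around the limits of the rule the values ran on without a gap. The members with the largest AB to TL ratio at any stage were vcam1b, si:dkey-81e3.2 and MIF4GD, at 0.1216, 0.1222 and 0.1224, and the nearest genes outside were ENSDARG00000117639, KIF21A and SLC15A5, at 0.1253, 0.1272 and 0.1298, where the limit is 0.125. The lowest TL stage means among the members were those of ftr78, ENSDARG00000090551 and EEF1A1, at 2.217, 2.625 and 2.703 CPM. Just outside were igldcp, si:ch211-120e1.7 and OLFM2, at 1.966, 1.858 and 1.752 CPM. The mirrored rule, with the strains exchanged, kept 55 genes. By name, the members held 1 gene each (3.33%) of the MHC, TRIM and potassium channel classes, which made up 0.048%, 0.413% and 0.154% of the 10416 genes at this level in TL. They held none of the zinc finger, ribosomal, solute carrier, ubiquitin, histone, cytochrome P450 or NLR classes, at 1.27%, 1.56%, 1.5%, 1.71%, 0.173%, 0.144% and 0.0288%. With 30 members, 0 or 1 gene in a class says little about it.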

How the data were processed

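The authors deposited raw, unnormalised counts for each Ensembl gene, in 1 table of 12 embryos a stage. The submitters' processing notes name bcl2fastq 2.19.0.316, STAR 2.7.1a and edgeR 3.26.8 without their roles; genome build, annotation, counting program, strand and use of molecular identifiers are not given in the sources used here. Without strand, reads of a gene and of an antisense or overlapping neighbour cannot be told apart. Symbols came from a table that held 29201 of the 32520 IDs. Symbols in capitals are as that table gives them.

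The most abundant ID, ENSDARG00000080337 (11.3% to 60.5% of an embryo's counts), was left out of totals and tests. Within TL, 24 embryos were fitted with edgeR 4.0.16 (limma 3.58.1, R 4.3.3) after filterByExpr and TMM, by glmQLFit and glmQLFTest, with p-values adjusted by Benjamini-Hochberg over all genes tested. Stage calls needed an adjusted p under 0.05 together with a log2 change of at least 1 in size. The standard error (SE) is the log2 fold change over the root of its F statistic. Fits were tested on simulated data in which every gene had the same spread and replicates did not differ. That test therefore does not cover members with a larger spread. The value of 3 counts allows for counting error only, and it was not applied as a floor to the ratios. The members, lists and tests were chosen with earlier results of these data known. All members are named. Apart from the most abundant ID, other genes named are listed markers, share a symbol with a member or lie next to a limit of the rule. Also named are zgc:171490 and map3k22, which were tested but not called in the other replicate.

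Samples were paired by biological replicate, since per the labels every replicate had sequencing runs to itself. The main fits between stages held stage only and did not use this pairing, which entered as the replicate block among the alternatives. Deviations of replicate 2 from the TL stage means correlated across 13022 genes with r of 0.183 to 0.462 between stages. Alternatives were DESeq2 1.42.0 (test and size factors), no filter, the most abundant ID kept in, all 48 embryos in 1 fit, the replicate block, each replicate left out, and sums over 3 embryos.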

Additional observations from a re-analysis of the deposited data

Results flagged for a closer look

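Single embryos that stood apart from the other 5 of their group by Dixon's criterion were looked for in 156 groups of 6 embryos, and 18 were found. Chance flags about 1 in 20 groups that were not selected on their values. That rate does not hold for the AB groups, which were checked only where an embryo had more than 10 counts, a choice that favours groups with a high embryo. The TL groups belong to genes chosen on their TL means, so the rate is not known to hold for them either.

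In TL, high embryos were RASL10B in embryo 6 at 3.25 hpf (7.03 CPM, others at most 2.81), zgc:112970 in embryo 1 at 2.25 hpf (15.4, others at most 6.07) and si:rp71-80o10.4 in embryo 6 at 4.25 hpf (22.9, others at most 9.10). Further high TL values were prr15lb in embryo 4 at 5.25 hpf (19.1 CPM, others at most 5.29), scel in embryo 1 at 2.25 hpf (111, others at most 72.9), vcam1b in embryo 5 at 5.25 hpf (8.69, others at most 3.52) and si:dkey-81e3.2 in embryo 4 at 4.25 hpf (43.3, others at most 13.7). Low TL embryos were mhc1zfa in embryo 6 at 2.25 hpf (1.60 CPM, others at least 5.85) and eya2 in embryo 5 at 4.25 hpf (4.15, others at least 11).

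In AB, all were high embryos. Both nectin4a values, 2.21 CPM in embryo 1 at 2.25 hpf and 3.95 CPM in embryo 4 at 5.25 hpf, stood above others of at most 0.394 and 0.851 CPM. For malb it was embryo 3 at 2.25 and 3.25 hpf (6.30 and 7.46 CPM, others at most 1.05 and 1.16). For si:dkey-81e3.2 it was embryo 5 at 3.25 hpf (14.3 CPM, others at most 3.23) and embryo 3 at 4.25 hpf (3.03, others at most 1.15). At 4.25 hpf AB embryo 6 was high in mhc1zfa (2.52 CPM, others at most 0.470) and EEF1A1 (1.56, others at most 0.396), and at 2.25 hpf AB embryo 1 was high in si:dkey-25o1.7 (2.53, others at most 1.18).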

How the results depend on the processing

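Of 144 counts recomputed under the alternatives, 125 stayed within 1.5 times. Of 137 recomputed fold changes of single genes, 121 kept their direction and side of the threshold, 11 lost it, 2 gained it and 3 changed sign. Those 3 were values that had not been called: with replicates left out, the log2 difference of the other KCNK5 ID ranged from -0.09 to 1.06 at 3.25 hpf and -0.13 to 0.54 at 5.25 hpf, and that of the other RND3 ID from -0.21 to 0.89 at 5.25 hpf. With replicates left out, the genes called between stages in TL ranged from 9 to 64 (55 with both), 244 to 668 (528) and 994 to 2152 (1625) in the 3 steps, and DESeq2 called 98 in the first. In each step the lower number came without replicate 1 and the higher without replicate 2. Members rising from 3.25 to 4.25 hpf numbered 1 with the replicate block and with DESeq2, and 0 to 1 with replicates left out. Members falling from 4.25 to 5.25 hpf numbered 1 to 4 with replicates left out, and over the whole span 2 to 6 fell and 0 to 1 rose; the gain without replicate 1 was si:dkey-93m18.3. The replicate block changed no call of a member other than those of malb and EEF1A1. Sums over 3 embryos called 246 genes between TL replicates in place of 1753, and MIF4GD became lower in replicate 2 (-0.87, edgeR adjusted p 0.0462), as it did with no filter (-0.80, 0.0095), where its main value was -0.80 (0.132). Members higher in replicate 2 numbered 5, in place of 3, with no filter on low counts and with DESeq2, by EEF1A1 and si:ch211-207c6.6. With no filter, the genes chosen in the other replicate and called higher in TL were 27 in replicate 1 at 5.25 hpf and 26 in replicate 2 at 4.25 hpf. The rule kept 17 genes with t of at least 4 CPM, 81 with a of at most t/4, 14 with a of at most t/16 and 29 to 32 with replicates left out. Met under all 9 alternatives of the rule were KCNK5, dicp1.16, CCDC134, ENPEP, RND3, HOXB2, scel, si:ch211-207c6.6 and si:rp71-80o10.4. The cause of these moves was not tested, and fits with a replicate left out also had fewer embryos. In the shallowest embryo 3 counts were worth 0.914 CPM, more than the mean AB level of 23 members.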
